A study of Mus musculus with 20 samples.

Results

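Committed and newly formed oligodendrocytes were looked for in the mouse hippocampus as nuclei that hold RNA of Enpp6, Bmp4 and Gpr17. A nucleus was taken when the summed UMIs (unique molecular identifiers, counts of captured RNA molecules) of these 3 genes reached 3 or more, Pdgfra had 1 UMI at most, the neuronal genes Gad1, Gad2, Prox1 and Fibcd1 had 1 UMI at most together, and the microglial, astrocytic, endothelial and fibroblast genes Csf1r, Aqp4, Flt1 and Col1a2 had 0. The rule found 208 of 160777 nuclei (0.129%), spread over all 20 mice with 2 to 22 per mouse (median 10). They are called Enpp6/Bmp4/Gpr17 nuclei here. For comparison, 293 oligodendrocyte precursor nuclei (Pdgfra of 3 or more UMIs) and 5586 mature oligodendrocyte nuclei (Mog, Mag and Opalin together 3 or more UMIs) were taken from the same mice, both with at most 1 UMI of Enpp6, Bmp4 and Gpr17 and the same limits on the other genes.

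Oligodendrocyte precursors divide in the adult brain, and some leave the cycle, lose Pdgfra and pass through a short committed state before they become newly formed oligodendrocytes that reach out to axons and then either wrap them or die. Gpr17 is a G protein-coupled receptor of the committed state, Bmp4 a secreted ligand made by the same cells, and Enpp6 a choline phosphodiesterase that is switched on as differentiation starts. Enpp6 is widely used to find new oligodendrocytes in adult tissue, where they mark sites at which myelin is still being added.

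The study asked how anesthesia changes the hippocampus of wild-type (WT) mice and of APP/PS1 mice, an Alzheimer's disease model whose mutant human APP and deltaE9 PS1 transgenes run from the prion protein (Prnp) promoter in the brain and do not copy the sporadic disease. All mice were males of 4.5 to 5.5 months. The labels name perfusion with buffered saline before the hippocampus was taken, while the study's methods for these libraries name decapitation and no perfusion. As labelled, 6 WT and 3 APP/PS1 mice were awake, and 3 WT and 4 APP/PS1 mice had 3 h of isoflurane (5% at first, then 1.5%). For 3 h as well, 2 WT and 2 APP/PS1 mice had ketamine at 150 mg/kg with xylazine at 12 mg/kg. Ketamine can therefore not be told apart from xylazine. The design text of the series gives other group sizes, 5 WT and 4 APP/PS1 awake with 4 WT and 3 APP/PS1 under isoflurane, so every state and genotype value below rests on the labels of the single mice, which were used. Each mouse is 1 single-nucleus RNA-seq library.

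The 20 libraries held 4743 to 10877 nuclei and 9243992 to 25394891 UMIs each. Prnp, whose promoter drives the transgenes, lay at 63.6 to 433 CPM (UMIs of the gene scaled to a library of 1000000 UMIs; median 190) in libraries labelled APP/PS1 and at 42.2 to 196 CPM (median 78.5) in those labelled WT, so the ranges overlapped and the labels were used as given. WT mouse 14, at 196 CPM, lay above the APP/PS1 median. APP/PS1 mice 11 and 17, at 63.6 and 74.5 CPM, lay below the WT median. Mice 1 to 4 stood apart with 0.939 to 1.78% mitochondrial UMIs, against 0.0353 to 0.336% in the others. No pair of libraries shared more than 35 cell barcodes, and no pair shared more than 0.407% of the barcodes of its smaller library.

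The nuclei were chosen by their measured UMIs of the rule's genes, of which Enpp6 carried most, so these values describe the choice and are no finding. The nuclei held 667 UMIs of Enpp6, 158 of Gpr17 and 99 of Bmp4. Enpp6 was seen in 192 nuclei, Gpr17 in 85 and Bmp4 in 64, while 88 nuclei had Enpp6 alone, 104 had it with at least 1 of the others and 16 lacked it. The marker sum had a median of 4 and reached 15. Near the threshold, 86 nuclei were taken with a sum of 3, whereas 344 nuclei with a sum of 2 stayed out. Summed over the nuclei, Bcas1 lay at 2706 CPM just inside the threshold and at 1062 CPM just outside it. The rule removed 4 nuclei of sufficient marker sum for Pdgfra, 10 for the neuronal genes and 44 for the glial and vascular genes. A median nucleus held 1602.5 UMIs (536 to 15867), close to the 1653 of precursors and above the 980 of mature oligodendrocytes.

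The nuclei were described by lineage genes that the rule did not use, in 10 mice with at least 10 nuclei of each class (141 Enpp6/Bmp4/Gpr17, 183 precursor and 3014 mature nuclei). These levels are given without a test, since the nuclei were cut out by genes of the same cells. The list of newly formed oligodendrocyte genes summed to 27293 ± 4967 CPM (SD, n = 10 mice) in the Enpp6/Bmp4/Gpr17 nuclei, 2139 ± 363 CPM in precursors and 3476 ± 596 CPM in mature oligodendrocytes. The nuclei were higher than both classes in 10 of 10 mice, by 3.67 ± 0.47 and 2.97 ± 0.43 on the log2 scale. All 17 measured genes of the list were over 2-fold higher than in either class, while of all genes with at least 10 UMIs 1216 of 8850 were over 2-fold higher than in precursors and 3397 of 14358 over 2-fold higher than in mature oligodendrocytes. Genes higher by any amount were 4242 and 8552. The committed precursor list summed to 6867 ± 1113 CPM against 1168 ± 342 CPM in precursors and 413 ± 50.9 CPM in mature oligodendrocytes, with 8 of 8 and 10 of 10 measured genes higher. On these lists the nuclei carried the genes their label names. The lists were chosen with earlier results of these data known, and both other classes had at most 1 UMI of the marker genes. This is therefore a description and no independent check of the label.

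**Figure D1:**
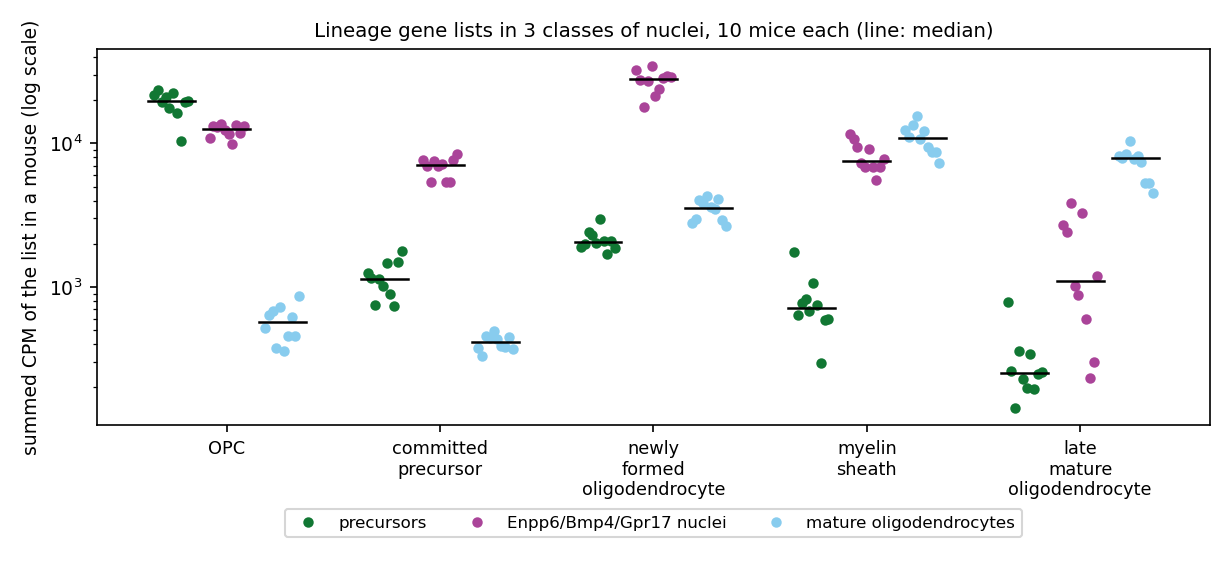
Summed CPM (log scale) of 5 lineage gene lists, without the genes that chose the classes, in precursors, Enpp6/Bmp4/Gpr17 nuclei and mature oligodendrocytes. Each point is 1 of 10 mice and the line is the median. The newly formed oligodendrocyte list of the Enpp6/Bmp4/Gpr17 nuclei, at 17856 to 34470 CPM, lies above both other classes in every mouse, and their late mature list spreads from 234 to 3826 CPM.

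Bcas1, a gene that marks myelinating oligodendrocytes at an early stage, summed to 3863 CPM over the nuclei of these mice, with 2939 to 4399 CPM in single mice. It lay at 336 CPM in precursors and 491 CPM in mature oligodendrocytes. After each nucleus was thinned to 1000 UMIs, which 182 of the nuclei reached, Bcas1 was seen in 86.3% of them, 27.4% of 248 precursors, 40.3% of 2702 mature oligodendrocytes and 4.05% of the remaining nuclei. Its antisense partner Bcas1os2 overlaps it, and their reads may be mixed. 9630013A20Rik, a long noncoding RNA, lay at 2685 CPM (1635 to 4072), against 64.7 CPM in precursors and 172 CPM in mature oligodendrocytes. Tcf7l2, the Wnt-linked transcription factor of differentiating oligodendrocytes, lay at 1067 CPM (582 to 1637), against 114 and 46.6 CPM. Each of the 3 was higher in the Enpp6/Bmp4/Gpr17 nuclei of 10 of 10 mice.

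Fyn and Tns3 of the committed list and Nfasc of the newly formed list were far above both neighbours as well. Fyn, a Src-family kinase that acts downstream of axonal contact, lay at 3616 CPM (2894 to 4609), 246 CPM in precursors and 176 CPM in mature oligodendrocytes. Tns3, a focal adhesion protein, lay at 2028 CPM (1286 to 2748), 277 CPM and 134 CPM in the same order. Nfasc, which encodes the neurofascins of the node and paranode, lay at 3518 CPM (1858 to 4988), 140 CPM and 947 CPM. Neither neighbouring class reached the lowest mouse of the Enpp6/Bmp4/Gpr17 nuclei for any of these 3 genes. Itpr2, an endoplasmic calcium channel, was closer to precursors, at 1141 CPM against 445 CPM in precursors and 32.3 CPM in mature oligodendrocytes. Frmd4a, at 8502 CPM against 230 and 414 CPM, was seen in 58.7% of the remaining thinned nuclei as well.

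Most precursor genes lay between both neighbours, but unequally. The precursor list summed to 12327 ± 1219 CPM against 19186 ± 3777 CPM in precursors and 570 ± 165 CPM in mature oligodendrocytes, and 10 of its 12 genes were over 2-fold lower than in precursors while all 12 were over 2-fold higher than in mature oligodendrocytes. Against precursors the median log2 ratio of the 12 genes was -2.10, larger than the sums show, and Tnr alone lay at 7537 CPM. Lhfpl3 lay at 843 CPM against 5473 CPM in precursors and 63.2 CPM in mature oligodendrocytes. Ptprz1, a receptor phosphatase, lay at 477 CPM against 2512 and 79.6 CPM, and Vcan, a matrix proteoglycan, at 528 CPM against 1159 and 7.73 CPM. The 2 genes above their precursor level were Tnr (tenascin R), at 7537 CPM against 3787 CPM, and the transcription factor Sox6, at 1625 CPM against 1350 CPM.

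Myelin genes lay close to their mature level and late mature genes well below it. The 12 myelin genes outside the class rules summed to 8224 ± 1927 CPM, against 796 ± 390 CPM in precursors and 10985 ± 2527 CPM in mature oligodendrocytes, and were lower than in mature oligodendrocytes in 9 of 10 mice. Mbp, the myelin basic protein gene, lay at 3531 CPM against 3651 CPM in mature oligodendrocytes. Mobp, which is turned on later, lay at 342 CPM against 1048 CPM, with 0 CPM in the lowest mouse. The late mature list summed to 1646 ± 1303 CPM against 301 ± 184 CPM in precursors and 7349 ± 1787 CPM in mature oligodendrocytes, and 13 of its 14 genes were lower than in mature oligodendrocytes. Nuclei at the threshold carried much of this, since the list summed to 2913 CPM over the nuclei with a marker sum of 3 and to 843 CPM over those with 5 or more. With only the latter, the mean over mice was 549 CPM and lay 2.29-fold above precursors, in place of 4.24-fold. Prr5l, a regulator of the TORC2 kinase complex, lay at 356 CPM against 1705 CPM, and Aspa, the N-acetylaspartate-cleaving enzyme of mature cells, at 125 CPM against 673 CPM.

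The lineage transcription factors were mixed, with 9 of 15 measured genes above precursors and 12 of 17 above mature oligodendrocytes. St18 lay at 2262 CPM against 15.5 CPM in precursors and 2200 CPM in mature oligodendrocytes, so this factor was at its mature level. Myrf, the factor that drives myelin gene transcription, was listed at 0 in precursors and lay at 108 CPM against 100 CPM in mature oligodendrocytes. Sox10, which all oligodendrocyte lineage cells use, lay at 288 CPM against 153 and 122 CPM. Zfp536 stayed lower than in mature oligodendrocytes in 10 of 10 mice, at 633 CPM against 1874 CPM.

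Of signaling genes of the BMP, Wnt and Notch pathways, 2 of 9, 5 of 11 and 1 of 5 measured genes lay above precursors. Above mature oligodendrocytes lay 5 of 14, 8 of 12 and 7 of 8. Over all genes 4242 of 8850 and 8552 of 14358 were higher. The few Notch genes lay between both neighbours, at median log2 ratios of -1.03 against precursors and 1.05 against mature oligodendrocytes. The 5 of 14 BMP genes above mature oligodendrocytes became 8 with every exclusion gene at 0 UMIs and 10 with marker sums of 5 or more, where the median log2 ratio went from -0.19 to 0.04 and 0.51. Of the BMP pathway, the receptors Bmpr1a (91.4 CPM) and Bmpr2 (115 CPM) lay near their levels in precursors (95.7 and 122 CPM), although the nuclei were chosen in part for the ligand Bmp4. Smad7, an intracellular inhibitor of the pathway, lay at 220 CPM, above precursors at 54.3 CPM and below mature oligodendrocytes at 387 CPM. Among the feedback genes of the Wnt pathway, Axin2 had 8 UMIs over the 141 nuclei, Apcdd1 had 1 and Notum had 0. The receptor Notch1 lay at 16.9 CPM against 77.6 CPM. Top2a, a topoisomerase of dividing cells, had 0 UMIs, which allows up to 10.2 CPM by counting error, against 85.4 CPM in precursors.

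Of 14 genes for axon-glia contact, 9 were higher than in precursors and 11 higher than in mature oligodendrocytes. The adhesion molecule Cadm2 lay at 6020 CPM against 3070 and 2053 CPM, and the semaphorin Sema4d at 670 CPM against 59.5 and 136 CPM. Cholesterol is a main lipid of myelin, and 13 of 14 measured synthesis genes were higher than in precursors, with 12 of 16 higher than in mature oligodendrocytes. Cyp51, the lanosterol demethylase of the pathway, lay at 108 CPM against 36.2 and 45.0 CPM, a level that rested on 32 UMIs.

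The promoters of 3 genes that set these nuclei apart are shown, as 250 bases before to 50 after the start of transcription in RefSeq on GRCm38.p6. Enpp6 is the leading marker of the rule, Tns3 is from the committed and 9630013A20Rik from the newly formed list, and the 3 were chosen with their sequences in view. Capitals mark the 6-letter word ACAATG or its reverse complement CATTGT, a word of the kind that Sox factors bind, which each of the 3 promoters held at 1 place. Enpp6 lies on the plus strand at chr8:46986637-46986936, Tns3 on the minus strand at chr11:8664486-8664785 and 9630013A20Rik on the minus strand at chr14:84476375-84476674.
Enpp6: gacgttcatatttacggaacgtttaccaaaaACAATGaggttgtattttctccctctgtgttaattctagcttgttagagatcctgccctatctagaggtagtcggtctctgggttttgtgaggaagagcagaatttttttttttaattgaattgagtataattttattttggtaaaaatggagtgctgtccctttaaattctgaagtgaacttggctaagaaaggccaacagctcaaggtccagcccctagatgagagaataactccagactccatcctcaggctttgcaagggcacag
Tns3: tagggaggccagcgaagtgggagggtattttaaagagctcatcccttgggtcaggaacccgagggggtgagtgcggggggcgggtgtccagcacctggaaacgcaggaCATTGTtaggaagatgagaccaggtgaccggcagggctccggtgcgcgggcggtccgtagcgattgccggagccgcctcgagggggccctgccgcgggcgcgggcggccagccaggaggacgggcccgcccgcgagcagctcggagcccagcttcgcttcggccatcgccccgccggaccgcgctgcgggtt
9630013A20Rik: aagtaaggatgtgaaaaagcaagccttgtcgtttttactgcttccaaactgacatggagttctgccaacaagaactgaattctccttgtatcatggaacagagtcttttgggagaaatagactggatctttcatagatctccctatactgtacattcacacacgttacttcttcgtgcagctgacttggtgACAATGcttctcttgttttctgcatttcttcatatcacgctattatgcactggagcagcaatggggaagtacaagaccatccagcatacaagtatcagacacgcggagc
On both strands, ACAAAG was searched along with ACAATG as words of Sox factors, TCAAAG as a word of TCF and LEF factors, CAGCTG along with CATCTG as E-boxes, and TATAAA as the TATA box. ACAATG stood in 12.57% of 32851 promoters of all genes. ACAAAG or ACAATG stood in 28.6% of all promoters and in 31.03% of 29 promoters (22 genes) of the newly formed and committed lists. In the myelin and late mature lists either word stood in 51.43% of 35 promoters (22 genes). Promoters of the same gene were counted separately. A word in this window is a description and not a binding site.

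Along the lineage the nuclei did not form 1 even group. Split by the summed UMIs of the mature genes Mog, Mag and Opalin, 93 nuclei had 0, 62 had 1 or 2 and 53 had 3 or more, at median depths of 1451, 1584 and 2134 UMIs, so deeper nuclei also had more chance to hold a mature UMI. All values of this split are descriptions. From the first to the last of the 3 stages, the precursor list went from 14951 through 10983 to 6039 CPM and the late mature list from 394 through 1592 to 3213 CPM. The newly formed list was at 21668, 33814 and 31380 CPM and the committed list at 7535, 7133 and 4513 CPM.

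Single genes outside the rule varied along the same split. Lhfpl3 went from 1385 through 267 to 241 CPM. In the opposite order, 9630013A20Rik went from 1696 through 2558 to 4287 CPM and Cnksr3, a scaffold of kinase signaling, from 299 through 783 to 1234 CPM. The share of nuclei with a UMI of 9630013A20Rik did not follow its CPM, at 77.4, 82.3 and 62.3%, and the last stage holds the deepest nucleus of all, with 15867 UMIs. Mobp went from 77.6 through 225 to 694 CPM, and Slc24a2, a sodium, potassium and calcium exchanger, from 161 through 1033 to 1899 CPM. Prr5l was at 0, 350 and 752 CPM.

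**Figure D2:**
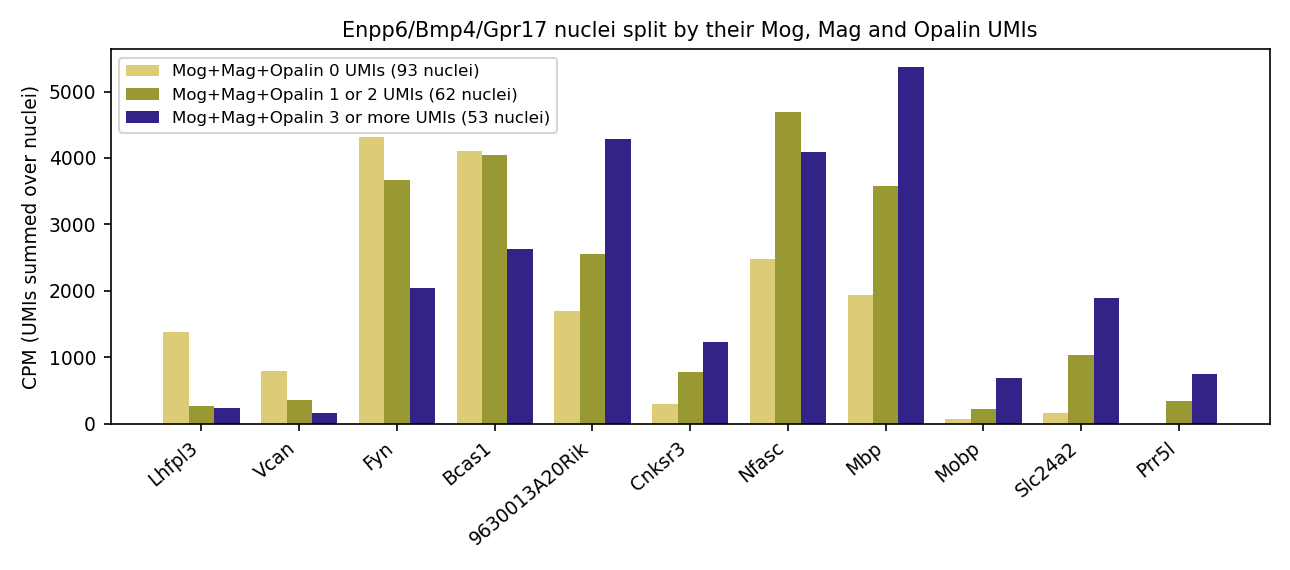
Level in CPM (linear axis) of 11 genes in the Enpp6/Bmp4/Gpr17 nuclei with 0 (93 nuclei), 1 or 2 (62) and 3 or more (53) UMIs of Mog, Mag and Opalin together. UMIs are summed over the nuclei of a stage, so the bars have no error. Lhfpl3 falls from 1385 to 241 CPM from the first to the last stage and Slc24a2 rises from 161 to 1899 CPM.

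RNA of excitatory neurons was present in part of the nuclei. Over the 10 genes of the excitatory neuron list, 23 nuclei of 14 mice had 3 or more UMIs and 185 had fewer, at median depths of 3856 and 1528 UMIs. These 23 nuclei held 91077 of the 424423 UMIs of all 208 nuclei. The deepest, in mouse 18, had 15867 UMIs and 88 of the neuron list. The astrocyte, microglia and vascular lists are given beside the results for anesthesia. Doublets were not called here.

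The share of Enpp6/Bmp4/Gpr17 nuclei was compared across mice, which the rule did not use. In awake WT mice they made up 0.0412 to 0.215% of nuclei (0.141 ± 0.0629%, SD, n = 6), and in awake APP/PS1 mice 0.0662, 0.231 and 0.295%. The 0.0662% belonged to mouse 10, whose 7 nuclei held 20 UMIs of Bmp4, 4 of Enpp6 and 0 of Gpr17. Their astrocyte list summed to 3718 CPM, above the 1232 to 2121 CPM of whole libraries. The lineage lists above did not cover mice with fewer than 10 nuclei of a class. Under isoflurane the shares were 0.0936, 0.117 and 0.150% in WT and 0.0541 to 0.186% in APP/PS1 (0.104 ± 0.0569%, n = 4). Under ketamine they were 0.0354 and 0.0585% in WT and 0.112 and 0.195% in APP/PS1 mice. Over both genotypes, the ranges of the 3 states overlapped. A nucleus with less marker RNA falls below the rule, so fewer such nuclei and less marker RNA in each cannot be told apart.

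**Figure D3:**
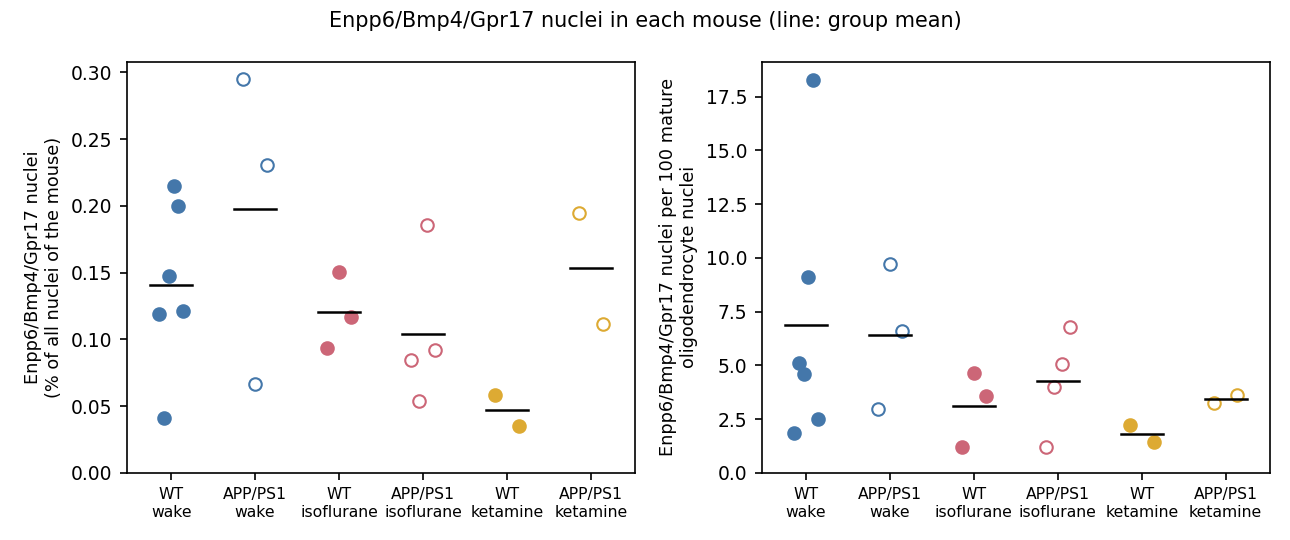
Enpp6/Bmp4/Gpr17 nuclei in each mouse as a percentage of all nuclei (left) and per 100 mature oligodendrocyte nuclei (right), with 1 point per mouse, filled for WT and open for APP/PS1, and a line at the group mean. On the left, wake mice range from 0.0412 to 0.295%, isoflurane mice from 0.0541 to 0.186% and ketamine mice from 0.0354 to 0.195%.

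None of the abundance differences passed the test as designed, within genotype or state and adjusted over 12 tests. Isoflurane against wake gave a log2 difference in share of -0.44 (p = 0.289, adjusted p = 0.409, two-sided exact permutation within genotype over 16 mice). Per mature oligodendrocyte nucleus, where wake mice had 1.86 to 18.3 per 100 (median 5.08) and isoflurane mice 1.18 to 6.80 (median 3.97), the log2 difference was -0.80 (exact permutation p = 0.160, adjusted p = 0.409). Ketamine against wake gave -0.72 for the share (exact permutation p = 0.204) and -1.42 per precursor nucleus (exact permutation p = 0.0286, adjusted p = 0.343), where wake mice had 0.391 to 2.20 per precursor and ketamine mice 0.125 to 0.909. With runs of consecutive mouse numbers (which the labels do not call a batch) as strata, this difference went to -0.21 (exact permutation p = 0.8), but it then rested on 4 ketamine mice and 1 awake mouse, too few for the test to pass. The ketamine and isoflurane comparisons share the wake mice. APP/PS1 against WT gave 0.52 for the share (exact permutation p = 0.207) and 0.83 per precursor (exact permutation p = 0.0925). With the runs as strata, the isoflurane differences were -0.70 for the share (adjusted p = 0.236, exact permutation) and -1.02 per mature oligodendrocyte nucleus (adjusted p = 0.0556, exact permutation). The adjustment ran over 12 tests, of which 3 were on the Enpp6 part of the marker UMIs. They are not given, since the rule chose the nuclei by these genes. For the other 9 the adjusted p lay between 0.343 and 0.433. Adjusted over the 9 alone it lay between 0.257 and 0.361, and the difference per mature oligodendrocyte nucleus with the runs as strata then passed the threshold, at an adjusted p of 0.0417 (exact permutation), against 0.311 within genotype.

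Genes were tested on UMIs summed over the nuclei of a mouse in the 11 mice with 10 or more such nuclei, which hold 158 nuclei. They are 5 awake mice (WT 13, 14 and 19, APP/PS1 2 and 17), 4 isoflurane mice (WT 16 and 18, APP/PS1 15 and 20) and 2 ketamine mice, both APP/PS1 (25 and 26). A sum held 13453 to 43302 UMIs. Of 696 genes with enough UMIs, edgeR's quasi-likelihood test called 22 between isoflurane and wake at an adjusted p under 0.05 (3.16%), 12 lower (1.72%) and 10 higher (1.44%) under isoflurane, while 100 had an unadjusted p under 0.05. DESeq2 called 15 genes, 8 of the 12 lower and 7 of the 10 higher. When all 16 awake and isoflurane mice entered, however few nuclei they had, 0 of 801 genes were called, with 54 at an unadjusted p under 0.05, and none of the 22 was called with mice of 5 or more nuclei or with every exclusion gene at 0 UMIs. The latter setting also left 7 awake and isoflurane mice in the fit, against 9 before. With exclusion genes at 0 the median log2 difference of the 12 lower genes was -1.61, against -1.74 before, and that of the 7 higher genes still tested was 0.70, against 2.66 for all 10. With all mice the medians were -1.20 and 0.73.

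Of the 14 late mature genes 3 could be tested, and Prr5l and Apod were called lower under isoflurane. Both had enough UMIs to be tested through the awake mice, where they were high. Prr5l lay at 351, 480, 1275, 808 and 613 CPM in awake mice 2, 13, 14, 17 and 19 and at 146, 0, 26.1 and 0 CPM in isoflurane mice 15, 16, 18 and 20. Every isoflurane mouse lay below every awake mouse, and the fitted difference was -3.95 ± 0.78 (log2 ± SE, adjusted p = 0.0126, edgeR). Apod, a secreted lipid carrier of mature oligodendrocytes, lay at 655, 432, 721, 323 and 325 CPM awake and at 0, 199, 0 and 0 CPM under isoflurane. The groups did not overlap, with -4.66 ± 0.96 (adjusted p = 0.0126, edgeR). Mobp lay at 796, 336, 471, 679 and 397 CPM awake and at 36.4, 79.6, 469 and 0 CPM under isoflurane. Here mouse 18 lay among the awake mice, and the difference was -2.59 ± 0.62 (adjusted p = 0.0283, edgeR). Slc24a2, at 649 to 2199 CPM awake and 239 to 756 CPM under isoflurane, overlapped as well (-1.85 ± 0.43, adjusted p = 0.0230, edgeR).

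Pde4b, St18 and Pcdh9, at higher levels, were lower by smaller folds. Pde4b, a cAMP phosphodiesterase, lay at 3066, 4029, 4187, 3978 and 3209 CPM awake and at 1057, 1353, 1799 and 1696 CPM under isoflurane. The groups were far apart, with -1.27 ± 0.26 (adjusted p = 0.0126, edgeR). St18 lay at 3159, 2398, 2995, 2943 and 2957 CPM awake and at 1020, 1911, 1121 and 1345 CPM under isoflurane. It did not overlap either, with -1.10 ± 0.24 (adjusted p = 0.0168, edgeR). Pcdh9, a protocadherin, lay at 5827 to 8013 CPM awake and 3024 to 4094 CPM under isoflurane (-0.84 ± 0.21, adjusted p = 0.0306, edgeR). The other 5 lower genes were the membrane protein gene Tmeff2 (-1.15), the glutamate receptor gene Grm3 (-2.12), the sialyltransferase gene St6galnac3 (-1.64), the cadherin gene Cdh20 (-1.06) and Fnbp1 (-2.43). Among these, Grm3, St6galnac3 and Fnbp1 had enough UMIs to be tested through the awake mice, where they were high. Of the 12 lower genes 10 had groups that did not overlap, and so did 27 lower genes among all 696 (3.88%). The 12 kept their direction in every alternative in which they were tested, but 1 passed without mouse 15, 1 without mouse 17 and 1 (Prr5l) with the runs as a block, where the medians were -1.83 for the 12 lower and 2.52 for the 10 higher genes. Leaving out 1 mouse moved Prr5l between -6.15 (without mouse 15) and -3.65, Apod between -6.91 (without mouse 16) and -4.06, Mobp between -3.89 and -2.29, and Fnbp1 between -4.17 (without mouse 15) and -2.20.

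**Figure D4:**
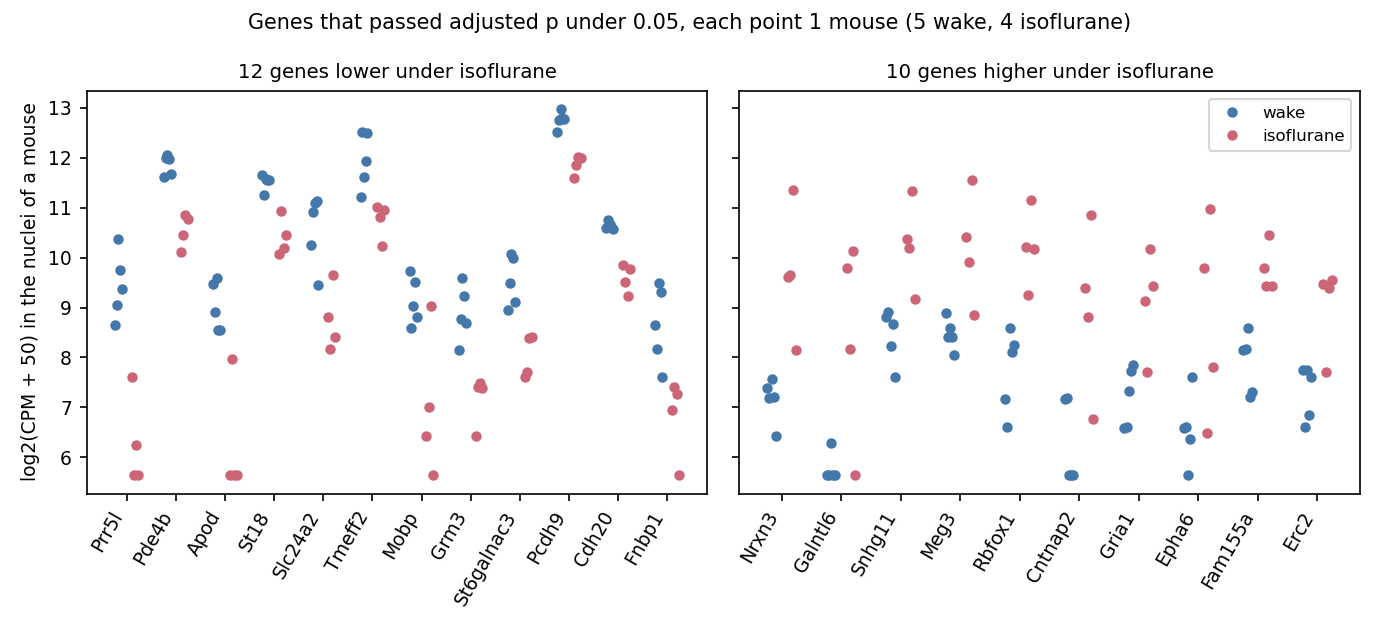
Level per mouse, as log2(CPM + 50), of the 12 lower (left) and 10 higher genes (right) between isoflurane and wake in Enpp6/Bmp4/Gpr17 nuclei, each point 1 of 5 awake or 4 isoflurane mice. Prr5l, Apod, Pde4b and St18 lie lower in all 4 isoflurane mice than in all 5 awake mice, and 1 isoflurane mouse, 18, lies at the top of Nrxn3 with 2555 CPM.

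None of the 10 higher genes was on the excitatory or inhibitory neuron list, of which 2 genes each were tested and 0 called, although the excitatory genes Syt1 and Grin2a lay at 1.80 and 2.56, at adjusted p of 0.109 and 0.123 (edgeR). Apart from Snhg11, the 10 higher genes had enough UMIs to be tested through the isoflurane mice, where they were high. Nrxn3, a presynaptic neurexin, lay at 117, 95.9, 139, 97.0 and 36.1 CPM awake and at 729, 756, 2555 and 234 CPM under isoflurane. The groups did not overlap, with 3.19 ± 0.51 (adjusted p = 0.00522, edgeR). Snhg11, a noncoding RNA of neurons, lay at 144 to 432 CPM awake and 526.2 to 2529 CPM under isoflurane (2.07 ± 0.41, adjusted p = 0.0126, edgeR). Galntl6 had 1 UMI in the awake and 70 in the isoflurane mice, 103-fold more per UMI of the nuclei, with an exact 95% counting interval of 17.8 to 4109 that does not cover the spread between mice. It lay at 838, 239, 1069 and 0 CPM in isoflurane mice 15, 16, 18 and 20 and at 27.7 CPM in awake mouse 14, and its fitted log2 difference ranged from 2.77 (without mouse 15) to 7.01 when 1 mouse was left out. Those of Epha6, Cntnap2 and Gria1 ranged from 1.51 to 4.63, from 2.74 to 5.88 and from 1.49 to 2.98. The others were Meg3 (2.09), the splicing factor gene Rbfox1 (2.79), Cntnap2 (4.05), the AMPA receptor gene Gria1 (2.53), Epha6 (3.86), Fam155a (2.14) and Erc2 (2.11). Of the 10 higher genes 4 had groups that did not overlap (Nrxn3, Snhg11, Rbfox1 and Fam155a), and so did 14 higher genes among all 696 (2.01%). None of the 10 was called with the runs as a block or without mouse 15, 1 was without mouse 18 and 2 without mouse 17. With every exclusion gene at 0 UMIs 7 were tested, and Nrxn3 and Rbfox1 turned to -0.55 and -1.64.

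Nuclei with UMIs of the excitatory neuron list held most UMIs of these 10 genes. In the isoflurane mice of the fit, 6 of 51 nuclei had 3 or more UMIs of the excitatory neuron list (7.14 to 16.7% per mouse), against 7 of 85 in the awake mice (0 to 21.4% per mouse), so the shares overlapped. The 6 held from 70.7% (Erc2) to 98.6% (Galntl6) of the UMIs of each higher gene. These 6 were deep nuclei, with 15867, 4756, 3909, 3903, 2344 and 2280 of the 108020 UMIs of the 51. The nucleus of mouse 18 named above alone had 86 of the 141 Nrxn3 UMIs. The excitatory list summed to 388 to 1154 CPM (median 444) in the awake and 478 to 2581 CPM (median 1657) in the isoflurane mice, with 8 of its 10 genes seen under isoflurane and Slc17a6 and Neurod2 at 0, against 5692 to 9358 CPM in whole libraries. Once nuclei with 3 or more UMIs of that list were left out, an alternative chosen after seeing the data, 13 genes of 531 were called (2.45%). All 13 were lower and none was higher, with 63 at an unadjusted p under 0.05. Prr5l (-3.59), Apod (-4.33), Mobp (-4.13), Slc24a2 (-2.76), Pde4b (-1.11), St18 (-1.06) and Pcdh9 (-0.97) stayed among them, and only Snhg11 of the 10 higher genes was still tested (0.54).

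**Figure D5:**
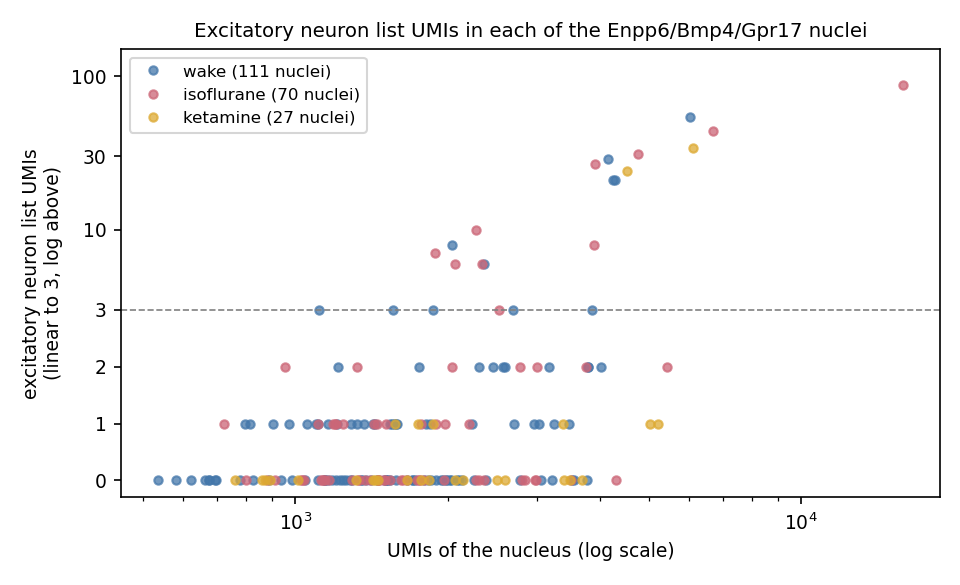
UMIs of the excitatory neuron list (linear up to 3, log above) against all UMIs (log scale) of each of the 208 Enpp6/Bmp4/Gpr17 nuclei, coloured by state, with a dashed line at 3 UMIs of the list. Below the line lie 185 nuclei, and the nucleus of mouse 18 with 15867 UMIs holds 88.

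Lists of other cell types differed in how they compared with whole libraries. In the mice of the fit, the microglia list summed to 64.7 to 305 CPM awake and 72.9 to 175 CPM under isoflurane, within the 81.1 to 366 CPM of whole libraries or just below, with Tmem119, Inpp5d and P2ry13 at 0 in both. The astrocyte list summed to 72.1 to 638 CPM awake and 0 to 409 CPM under isoflurane, with Fgfr3 at 0 in both and 9 and 5 of its 10 genes seen, against 1232 to 2121 CPM in whole libraries. The endothelial and mural list reached at most 36.4 CPM, against 27.1 to 547 CPM in whole libraries, with Cldn5, Rgs5 and Pdgfrb at 0. The inhibitory neuron list summed to 1695 to 3405 CPM awake and 2786 to 4151 CPM under isoflurane, mostly above the 1349 to 2097 CPM of whole libraries, with Slc32a1, Lhx6 and Dlx1 at 0 and Erbb4 and Adarb2 among the genes seen. The part of these lists in the called genes was not tested, apart from the fit without nuclei holding excitatory neuron UMIs.

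Of the 22 called genes only Apod, Prr5l, Mobp and St18 were on a list, and all 10 higher genes were on none. Over all 696 genes 12 were called lower (1.72%) and 325 lay below 0. Of 3 tested late mature genes, Apod and Prr5l were called lower and Trf lay at -1.56 (adjusted p = 0.120, edgeR). Of 8 tested myelin genes, 1 was called lower (Mobp) and 7 lay below 0, at a median log2 difference of -0.64 against 0.04 over all 696 genes. Apod, Prr5l and Mobp had enough UMIs to be tested through the awake mice, where they were high. The other genes of both lists had too few UMIs, so these tallies are no result on the lists. Mog lay at -1.92 (adjusted p = 0.154, edgeR) and Ugt8a, which makes the myelin lipid galactosylceramide, at -1.11 (adjusted p = 0.178, edgeR). Of 7 transcription factors only St18 was called. None of the 7 precursor, 4 committed, 13 newly formed and 10 axon-glia genes tested was called, with medians of 0.10, -0.04, 0.05 and -0.05. Tcf7l2 lay at 0.02 ± 0.34 and 9630013A20Rik at -0.41 ± 0.26 (log2 ± SE). No gene of the BMP, cell cycle, activity-regulated, glucocorticoid, heat shock, cholesterol, reactive, astrocyte, microglia or vascular lists had enough UMIs to be tested.

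The stages of the nuclei were counted by state without a test. Mog and Mag, which define the stages with Opalin, are also myelin genes of this contrast. In the mice of the fit, 29 of 85 nuclei of awake mice had 3 or more UMIs of Mog, Mag and Opalin (22.7 to 64.3% per mouse), against 7 of 51 under isoflurane (0 to 25% per mouse). Over all awake and isoflurane mice the counts were 34 of 111 (0 to 64.3% per mouse) and 14 of 70 (0 to 50% per mouse), so the ranges overlapped. Whether the lower genes fell within a stage or the stages were differently filled was not tested.

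The same contrast was fitted in the neighbouring classes. In precursors 0 of 1544 genes were called (130 at an unadjusted p under 0.05, edgeR), and in mature oligodendrocytes 175 of 8347 (2.1%; 127 higher, 1.52%, and 48 lower, 0.575%). In mature oligodendrocytes Tmeff2 (-0.84, adjusted p = 0.00733, edgeR) and Cdh20 (-0.94, adjusted p = 0.00513, edgeR) were lower too. Of the 12 lower genes 9 lay below 0 there, at a median of -0.17 over the 12, against 0.03 over all 8347 genes. Of the 10 higher genes 5 lay above 0. A test of the difference between classes within the same mice called 27 of 2040 genes against mature oligodendrocytes (1.32%), 13 with a higher (0.637%) and 14 with a lower response (0.686%). The isoflurane response of Prr5l differed from that in mature oligodendrocytes by -3.75 ± 0.60 (adjusted p = 0.00153, edgeR), that of St6galnac3 by -2.32 ± 0.40 (adjusted p = 0.0019, edgeR), that of Apod by -3.40 ± 0.67 (adjusted p = 0.0117, edgeR) and that of Slc24a2 by -1.85 ± 0.39 (adjusted p = 0.0216, edgeR). In mature oligodendrocytes themselves Prr5l lay at 0.00 and Apod at -0.08. All mature nuclei had 3 or more UMIs of Mog, Mag and Opalin by their rule. Of the Enpp6/Bmp4/Gpr17 nuclei in the fit, 29 of 85 had as many awake and 7 of 51 under isoflurane. The part of stage in these differences was not tested. Without mouse 2, the only one of mice 1 to 4 in the fit, the 27 genes went down to 2, Prr5l and St6galnac3. Leaving out any of mice 13, 14, 15, 17 or 18 left 1 to 8. Without the Enpp6/Bmp4/Gpr17 nuclei holding 3 or more excitatory neuron UMIs 20 were called, 2 with a higher and 18 with a lower response. Precursors and mature oligodendrocytes were not filtered in this way, and the part of this in the directions was not tested. Against precursors 3 of 784 genes differed (0.383%), 2 higher (0.255%) and 1 lower (0.128%), with Slc24a2 by -3.51 ± 0.59 (adjusted p = 0.00344, edgeR; its response was -1.85 in the Enpp6/Bmp4/Gpr17 nuclei and 1.94, not called, in precursors) and Rbfox1 and Galntl6 by 2.78 and 5.42. Without the Enpp6/Bmp4/Gpr17 nuclei holding 3 or more excitatory neuron UMIs, 6 genes differed from the unfiltered precursors, all with a lower response.

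Under ketamine 3 of 696 genes were called (0.431%) between 2 ketamine mice and awake mice 2 and 17, all APP/PS1, while 88 had an unadjusted p under 0.05 and DESeq2 called 3, all higher. Of the 3 genes of edgeR, 2 were higher (0.287%) and 1 lower (0.144%). Gm42418, a gene model that overlaps ribosomal RNA, lay at 749 and 711 CPM awake and at 8175 and 3419 CPM under ketamine (3.11 ± 0.46, adjusted p = 0.00218, edgeR). It was higher in whole libraries as well, at 1744 to 13870 CPM in the 4 ketamine mice against 401 to 1624 CPM in the other 16. The 1624 CPM belonged to mouse 29, the only awake mouse in the run of numbers 25 to 29 that holds all ketamine mice, while awake mice 2 and 17 of the fit come from other runs, so ketamine and run cannot be told apart in this fit. Cmss1 lay at 70.2 and 162 CPM awake and at 2494 and 818 CPM under ketamine (4.04, adjusted p = 0.0428, edgeR). Mobp had 1 UMI under ketamine and 55 in the awake mice, 42.4-fold fewer per UMI of the nuclei (exact 95% counting interval 7.30 to 1704, adjusted p = 0.0428, edgeR). All 8 tested myelin genes and all 3 late mature genes lay below 0, at medians of -1.19 and -2.39 against 0.02 over all genes, of which 336 of 696 lay below 0, though only Mobp was called. Mobp, Prr5l and Apod had enough UMIs to be tested through awake mice, where they were high. The other genes of both lists were not tested, so this is no result on the lists. Nuclei with 3 or more UMIs of Mog, Mag and Opalin were 3 of 12 and 1 of 10 in ketamine mice 25 and 26. In awake mice 2 and 17 they were 9 of 14 and 5 of 22. Over all mice the shares ran from 0 to 33.3% under ketamine and from 0 to 64.3% awake. The excitatory neuron list summed to 1432 and 74.3 CPM in mice 25 and 26, against 585 and 388 CPM in mice 2 and 17. Without the nuclei holding 3 or more excitatory neuron UMIs, 4 of 531 genes were called, 2 higher and 2 lower. The part of stage in the called genes was not tested. Mag lay at -1.52 (adjusted p = 0.192, edgeR) and Prr5l at -2.60 (adjusted p = 0.305, edgeR). No gene was called without mouse 2 or without mouse 25, and 12 were without mouse 17. Each of these fits leaves 1 mouse in a group, which is assumed to vary like the other groups.

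APP/PS1 against WT called 0 of 696 genes by edgeR, and DESeq2 called 0 as well, while 13 and 4 genes had an unadjusted p under 0.05 in the 2 tools. The smallest p-values belonged to Arhgap31 (1.03 ± 0.33, log2 ± SE) and Tcf7l1 (1.15 ± 0.45) on the higher and Man1a2 (-1.51 ± 0.45) and Cdyl (-1.03 ± 0.40) on the lower side, all at an adjusted p of 0.999. The newly formed list lay at a median of -0.08 over 13 tested genes, 6 above and 7 below 0, and the myelin list at -0.05 over 8. The genotype by isoflurane interaction called 0 genes, as did DESeq2, while 28 and 8 genes had an unadjusted p under 0.05. Mobp had the smallest p there, with -4.51 ± 1.27 (adjusted p = 0.984, edgeR), so its decrease could not be said to differ between genotypes. Prnp lay at 433, 325, 74.5 and 99.7 CPM in APP/PS1 mice 2, 15, 17 and 20 of these comparisons. In WT mice 13, 14, 16, 18 and 19 it lay at 87.0, 196, 63.5, 78.5 and 114 CPM. The groups overlapped, and both genotype results rest on the labels.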

How the data were processed

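Hippocampal nuclei of 20 mice were profiled by 10x single-nucleus RNA-seq. Per the labels and the study's methods, the authors made the deposited UMI counts with Cell Ranger 5.0.0 on mm10 with introns counted. The methods also name CellBender and doublet removal. Whether either step was applied to the deposited counts, which are whole numbers, is not stated. CPM scale each gene's UMIs to the total of the same nuclei, without gene length. Members, classes and gene lists were chosen with earlier results of these data known. In each edgeR comparison up to 10 called genes a direction were named, or 5 by smallest p where fewer than 3 were called, plus list members by size of change. UMIs were summed per mouse, with nuclei as no replicates, and mice with 10 or more nuclei entered 1 fit of all groups (filterByExpr, TMM, quasi-likelihood F-test, adjusted p by Benjamini-Hochberg, threshold 0.05) in edgeR 4.0.16, with DESeq2 1.42.0 as alternative. The fit was tested on simulated data with 1 common spread for all genes, for isoflurane against wake. It recovered 19.0% of 2-fold and 91.2% of 4-fold changes, with 6.38 and 3.65% of its calls false. Abundance used two-sided exact permutation within strata, with 0.5 added to both counts. A level of 0 was set against a floor of 3 UMIs. The methods state that tissue went through in batches of 4, each group being present. The labels do not give these batches. Mouse numbers 1 to 4 and 14 to 17 each hold 1 mouse of every awake and isoflurane group.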

Additional observations from a re-analysis of the deposited data

Results flagged for a closer look

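In 1 of 6 tests for a mouse far from the rest of its group, on 3 measures in the 2 groups of 4 or more mice, the number of Enpp6/Bmp4/Gpr17 nuclei per precursor nucleus stood out. It was 5 in mouse 11 of the APP/PS1 isoflurane group, from 5 such nuclei and 1 precursor nucleus. Chance marks about 1 in 20 groups in this way.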

How the results depend on the processing

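Mouse numbers are unique, so the groups share no replicate number, and runs of consecutive numbers served as block or strata instead. Adjusted over the 12 tests of the design, 70 values of the 9 abundance differences kept their direction and side of the threshold (over the 9 alone, isoflurane per mature nucleus with runs as strata passed it, at an adjusted p of 0.0417), and 2 turned, both per mature nucleus: ketamine with runs of mouse numbers as strata 0.0555 and APP/PS1 after thinning -0.48. Thinning left out nuclei under 1000 UMIs and took a marker sum of 2 or more, so depth and rule changed together. The 22 isoflurane genes became 44 with no filter, 34 with only the groups compared, 0 with exclusion genes at 0 (57 at an unadjusted p under 0.05), 1 with runs as a block, 10 without mice 1 to 4, 0 with 5 or more nuclei (63) or with these and the block (37), 13 without neuron UMI nuclei and 0 with all mice; with exclusion genes at 0, Nrxn3 turned to -0.55 and Rbfox1 to -1.64. Leaving out 1 mouse gave 1 (15) to 53 (16) genes, with 3 without mouse 17, 7 without 18, 9 without 14 and 10 without 2 or 13. Of mice 1 to 4 only mouse 2 had 10 or more nuclei, so in the gene tests leaving out mice 1 to 4 and leaving out mouse 2 are 1 fit. The 3 ketamine genes became 1 with DESeq2 size factors, 12 with no filter, 6 with only the groups compared, 10 with exclusion genes at 0, and 0 without mice 1 to 4, with 5 or more nuclei, with these and the block, and with all mice; leaving out 1 mouse gave 0 to 12. The 3 response differences from precursors became 6 without neuron UMI nuclei among the Enpp6/Bmp4/Gpr17 nuclei and 1 without mice 1 to 4 (1 to 20 leaving out 1 mouse). Those against mature nuclei went from 27 to 20 and 2 (1 to 40). The cause was not tested. Marker sums of 5 or more and a minimum of 20 nuclei left too few mice for gene tests, and the block could not be fitted for ketamine at 10 nuclei. Against both classes, the 5 lineage list sums kept their direction with exclusion genes at 0 and with marker sums of 5 or more. Medians of other lists turned: against mature nuclei the BMP list from -0.19 to 0.04 and 0.51 and the reactive list from -0.05 to 0.26 and 0.61 under these settings, and against precursors, with marker sums of 5 or more, the Wnt list from -0.14 to 0.01 and the heat shock list from 0.20 to -0.05.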

Other observations

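Genes outside the lists also set the nuclei apart, named after their values were seen and given with no test. Pik3r3, a regulatory subunit of phosphoinositide 3-kinase, lay at 2245 CPM (915 to 4737 in single mice), against 124 CPM in precursors and 84.5 CPM in mature oligodendrocytes. Epb41l2, a membrane skeleton protein, lay at 1558 CPM against 67.3 and 67.9 CPM. Arhgap24, a GTPase-activating protein for Rac, lay at 1273 CPM against 184 and 43.8 CPM. Ppfibp1, a liprin, lay at 1199 CPM against 510 and 13.3 CPM. All 4 were higher than both classes in 10 of 10 mice.

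Nuclei with Gpr17 or Bmp4 and nuclei with Enpp6 alone differed in the lists that the rule did not use. The 120 with Gpr17 or Bmp4 summed to 13841 CPM of the precursor and 519 CPM of the late mature list. The 88 with Enpp6 alone summed to 7296 and 3066 CPM, at median depths of 1584 and 1639 UMIs.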
